A study of Drosophila melanogaster with 12 samples.

Results

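The dosage compensation genes of Drosophila melanogaster were followed across 12 RNA sequencing libraries of single female heads. The set held 10 of the 17895 gene rows in the deposited count table: the RNAs lncRNA:roX1 and lncRNA:roX2, the MSL complex genes msl-1, msl-2, msl-3, mle and mof, and Clamp, JIL-1 and Sxl. They were taken by name and chosen by the lower level of lncRNA:roX2 in heads of flies fed the inhibitor, so that difference is given as a description, with no test. The tests bear on whether the other 9 genes moved with it, and on the genotypes. All 10 passed the filter on low counts, and 14155 genes were tested in all.

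The libraries fall into 4 groups of 3. They were made from heads labelled SIRT6 KO from flies given the TDO2 inhibitor 680C91, heads labelled SIRT6 KO from flies given DMSO, heads of w1118 flies given the inhibitor, and heads of w1118 flies given DMSO. TDO2 is the enzyme that opens the tryptophan ring, 680C91 was present at 100 µM in the food, and DMSO is its solvent. All flies were females aged 21 days, kept on supplemented food since eclosion, and the labels give their mating state as "verging". Each library is 1 head, so a difference between libraries includes the difference between flies. How the knockout was made is not given in the sources used here.

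In fly males, with a single X chromosome, the MSL complex coats the X and raises its transcription, and 1 of the roX1 and roX2 RNAs suffices to guide it there. In females the RNA-binding protein Sxl blocks the translation of msl-2, so the complex does not form and the roX RNAs are kept low. The genes of the other subunits are transcribed in both sexes. Counts per gene, as used here, do not show the sex-specific splice forms of Sxl and msl-2, or protein.

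Library totals ran from 24633705 to 44545859 counts, and 3 counts corresponded to between 0.0703 and 0.126 CPM (a gene's counts over its library's total, put on a common scale, here before TMM). Sirt6 did not mark the genotypes: it ran from 1.95 to 2.50 CPM in heads labelled KO and from 1.37 to 2.72 CPM in w1118, so every genotype direction below refers to the labels. The genes of yolk protein, Yp1 to Yp3, are transcribed in females. They took 9.97% to 13.7% of gene counts in heads labelled KO and 18.6% to 21.8% in 4 w1118 heads. The w1118 library 2 with inhibitor had 1.93% and the w1118 library 2 with DMSO had 0.429%. They had 331 and 62.1 CPM of fit, another female marker, against 3631 to 7249 CPM in the other w1118 heads. These 2 libraries stand apart from the rest. Values without both are given where they matter. Among markers of other cell types, the averaged genotype comparison called 1 of 3 photoreceptor markers (chp, higher), 1 of 3 neuronal markers (nSyb, higher), 1 of 4 ovary markers (vas, higher) and 1 of 2 male markers (Cyp4d21, lower), and none of the glial, fat body or testis markers. It called 0 of 4 female markers and 11.1% of all genes. The roX RNAs, also male markers, are members and were not counted here. Both were higher in heads labelled KO (log2 difference 0.43 for lncRNA:roX1 and 0.36 for lncRNA:roX2) without passing. The summed photoreceptor markers ran from 15695 to 21903 CPM in heads labelled KO and from 12611 to 21601 CPM in w1118. The neuronal sum ran from 1133 to 1331 CPM in heads labelled KO and from 783.8 to 1289 CPM in w1118. The fat body sum ran from 12587 to 28634 CPM in heads labelled KO and from 1430 to 36775 CPM in w1118. With that spread the lack of a fat body call does not show an even level. The ovary markers summed to at most 3.71 CPM. The part of these shifts in the genotype differences below was not tested. In whole heads, fewer cells of a type and less RNA per cell cannot be told apart.

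Per length, Sxl was the highest and lncRNA:roX2 the lowest of the 10 genes in these heads. Sxl, the switch gene of female development, stood at 28.5 ± 3.25 CPM per kb of exon (SD over 12 libraries, here and for the other levels per kb). Its lowest library, at 23.1 CPM per kb, lay above the highest library of Clamp, the zinc-finger protein that binds GA repeats on the X, at 22.7 CPM per kb. Clamp averaged 20.7 ± 1.36 CPM per kb. Below it came mle, an RNA helicase that remodels the roX RNAs, at 16.3 ± 2.21 CPM per kb, and JIL-1, a kinase of histone H3, at 13.1 ± 0.529 CPM per kb. The scaffold gene msl-1 had 12.1 ± 0.753 CPM per kb and the ubiquitin ligase gene msl-2 had 10.8 ± 1.01 CPM per kb. From Clamp down to mof each gene overlapped its neighbour in the order when all libraries were pooled. Within single libraries some steps held throughout: Clamp lay above mle, mle above JIL-1 and msl-2 above lncRNA:roX1 in every library. Others did not, as w1118 library 2 with DMSO had 12.9 CPM per kb for JIL-1 and 13.9 for msl-1. lncRNA:roX1 had 7.58 ± 2.06 CPM per kb, close to the chromodomain gene msl-3 at 6.25 ± 0.535 CPM per kb and the histone H4 acetyltransferase gene mof at 5.59 ± 0.552 CPM per kb. lncRNA:roX2 had 1.31 ± 0.685 CPM per kb, and its highest library, at 2.35 CPM per kb, lay below the lowest of mof at 4.84 CPM per kb.

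Over all 12 libraries the RNAs ranged wider than the protein genes. The highest library exceeded the lowest 4.73-fold for lncRNA:roX2, a range that holds the inhibitor difference that chose the set. For lncRNA:roX1 it was 2.68-fold. Among the 8 protein genes that ratio lay between 1.14 for JIL-1 and 1.58 for mle. Within groups the RNAs were not always the wider. In w1118 with DMSO, lncRNA:roX1 had 41.6 ± 0.331 CPM and msl-2 had 42.2 ± 6.45 CPM (SD, n = 3). In w1118 with inhibitor, lncRNA:roX1 had 29.2 ± 8.97 CPM and msl-2 had 38.1 ± 1.93 CPM (SD, n = 3). Both RNA genes lie on the X, as do mof and Sxl, and the other 6 are autosomal.

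**Figure D1:**
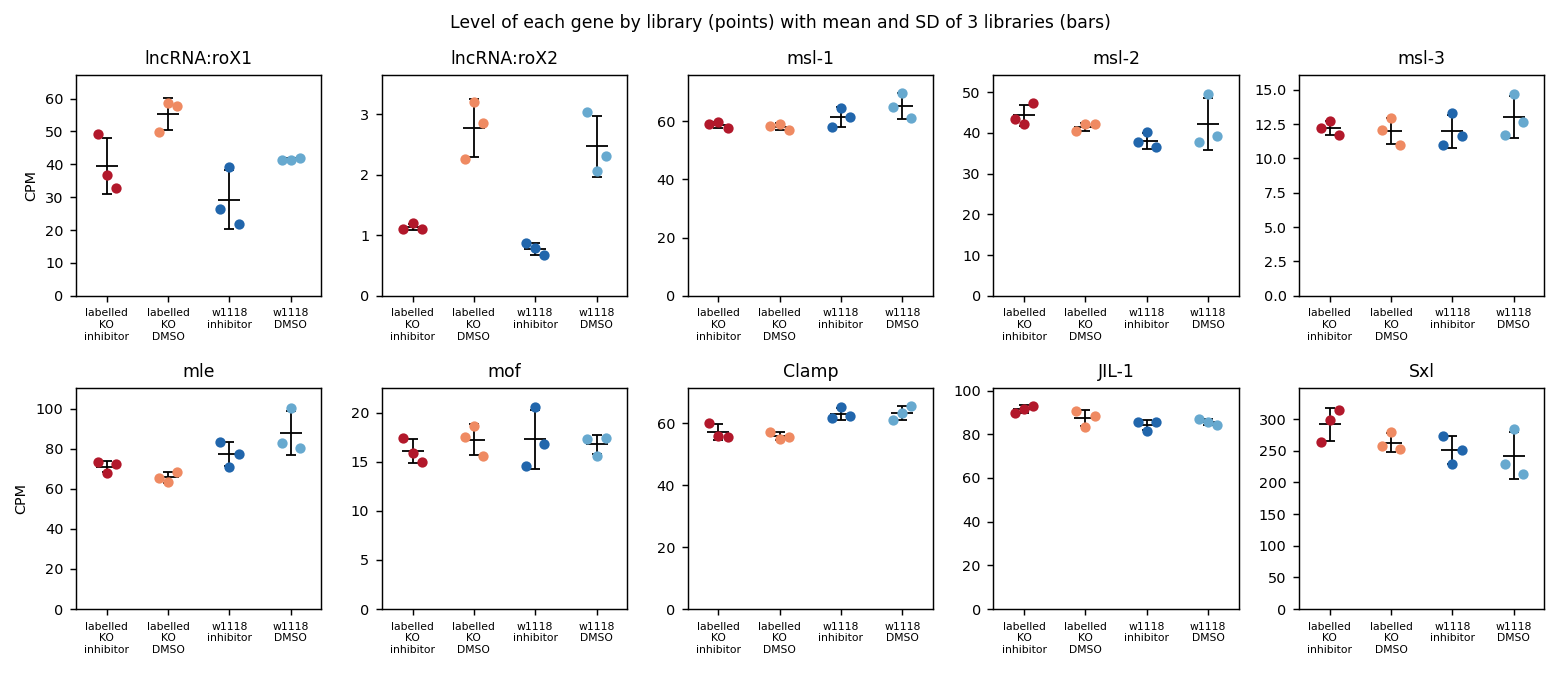
Level of each of the 10 genes in CPM (vertical axes, from 0) in the 4 groups, with 1 point per library and the mean and SD of 3 libraries as bars. lncRNA:roX2 lies between 0.679 and 1.20 CPM in the 6 inhibitor libraries and between 2.07 and 3.21 CPM in the 6 DMSO libraries. Each protein gene overlaps between these 2 sets of libraries. Its highest library exceeds its lowest by 1.14-fold (JIL-1) to 1.58-fold (mle).

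lncRNA:roX2 (FBgn0019660, a noncoding RNA gene of 1368 exon bases on X from 11579065 to 11580432 of BDGP6.54, plus strand) was lower with the inhibitor in both genotypes. In heads labelled KO it had 48, 50 and 37 counts with the inhibitor, against 81, 107 and 127 counts with DMSO. In w1118 heads it had 30, 22 and 22 counts with the inhibitor, against 83.9, 112 and 87 counts with DMSO. No inhibitor library reached the lowest DMSO library.

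Scaled for depth, the gap was as wide. Libraries labelled KO had 1.11, 1.20 and 1.101 CPM of lncRNA:roX2 with the inhibitor, against 2.26, 3.21 and 2.86 CPM with DMSO. Libraries of w1118 had 0.877, 0.784 and 0.679 CPM with the inhibitor, against 3.04, 2.07 and 2.31 CPM with DMSO. The 95% exact Poisson intervals of single libraries, which cover counting error only, reached up to 1.58 CPM among inhibitor libraries and down to 1.70 CPM among DMSO libraries. The fitted log2 change with the inhibitor, averaged over genotypes, was -1.47 (SE 0.14), a level of 0.361 times that with DMSO. It was -1.29 in heads labelled KO (SE 0.20) and -1.66 in w1118 heads (SE 0.20), and the difference between these was 0.37 (SE 0.28). Across 20 alternative settings the averaged change lay between -1.53 and -1.38. Without the 2 w1118 libraries that stand apart it was -1.52.

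lncRNA:roX2 was the 1 gene of 14155 with an adjusted p under 0.05 in the averaged inhibitor comparison (0.00706% of the genes tested, edgeR's quasi-likelihood test with Benjamini-Hochberg adjustment), which is how it came to be chosen. That call was lost in 7 of 20 alternatives. Its edgeR adjusted p was 0.158 with the replicate number as a block, and it lay between 0.0584 and 0.109 without any 1 of 6 libraries: the 3 labelled KO with inhibitor, w1118 libraries 1 and 3 with inhibitor, and w1118 library 3 with DMSO. A gap between all 6 inhibitor and all 6 DMSO libraries was seen for 0.339% of the genes tested in either direction.

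lncRNA:roX1 (FBgn0019661, a noncoding RNA gene of 5468 exon bases on X from 3857230 to 3862697, minus strand), which can stand in for roX2 in males, was lower with the inhibitor within each genotype, but its change did not pass the threshold over all genes. In heads labelled KO it had 49.2, 36.6 and 32.9 CPM with the inhibitor, against 49.8, 58.8 and 57.7 CPM with DMSO. In w1118 heads it had 26.4, 39.2 and 21.96 CPM with the inhibitor, against 41.3, 41.4 and 41.9 CPM with DMSO. The groups did not overlap in either genotype, although library 1 labelled KO with inhibitor fell just short of the lowest DMSO library and w1118 library 2 with inhibitor lay close to its DMSO group. Groups that do not overlap were found for 13% of all genes in heads labelled KO and 7.91% in w1118, so such a gap is common.

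The log2 change of lncRNA:roX1 with the inhibitor, averaged over genotypes, came to -0.50 (SE 0.15, 95% interval -0.82 to -0.17), with an unadjusted p of 0.00684 and an edgeR adjusted p of 0.892. It was -0.49 in heads labelled KO (SE 0.21, edgeR adjusted p = 1) and -0.51 in w1118 heads (SE 0.21, edgeR adjusted p = 0.638). Its interaction was 0.02 (SE 0.29, 95% interval -0.63 to 0.67, edgeR adjusted p = 1). Over the alternatives the averaged change lay between -0.62 and -0.40 and the adjusted p between 0.140 and 1, and the lowest p came without the 2 w1118 libraries that stand apart.

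The RNAs did not keep 1 ratio. The counts of lncRNA:roX2 were 2.96% ± 0.607 of those of lncRNA:roX1 with the inhibitor and 4.98% ± 0.467 with DMSO in heads labelled KO (SD, n = 3 each). In w1118 heads they were 2.80% ± 0.704 with the inhibitor and 5.95% ± 1.23 with DMSO (SD, n = 3 each). The highest ratio with the inhibitor, 3.35%, lay below the lowest with DMSO, 4.53%. These ratios share the lncRNA:roX2 values that chose the set and carry no test.

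**Figure D2:**
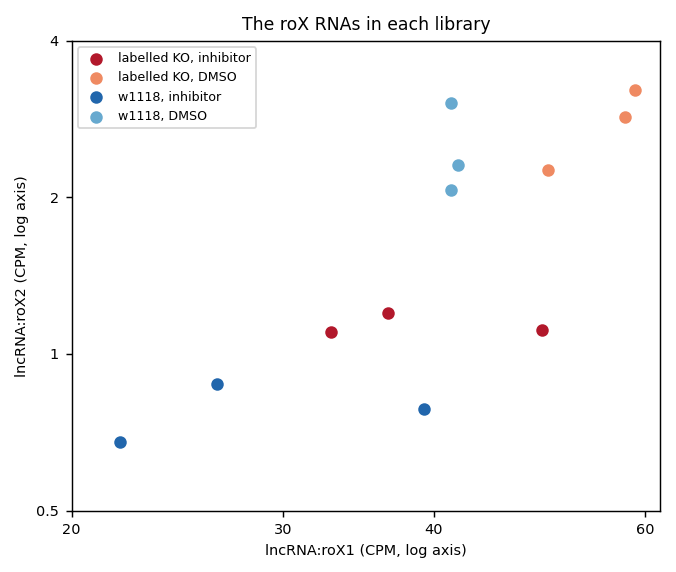
lncRNA:roX2 against lncRNA:roX1 in each of the 12 libraries, both in CPM on log axes, coloured by group. The inhibitor libraries lie below the DMSO libraries on the lncRNA:roX2 axis, from 0.679 to 1.20 against 2.07 to 3.21 CPM, while on the lncRNA:roX1 axis they overlap, from 21.96 to 49.2 against 41.3 to 58.8 CPM.

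By genotype, both RNAs were higher in heads labelled KO without passing the threshold. lncRNA:roX1 ran from 32.9 to 58.8 CPM with a median of 49.5 in the 6 libraries labelled KO, against 21.96 to 41.9 CPM with a median of 40.3 in the 6 of w1118. Averaged over treatments, the log2 difference came to 0.43 (SE 0.15, 95% interval 0.10 to 0.75, edgeR adjusted p = 0.0955). For lncRNA:roX2 it was 0.36 (SE 0.14, 95% interval 0.04 to 0.67, edgeR adjusted p = 0.137). The call on lncRNA:roX1 depended on the tool and on 1 library. On all 12 libraries it passed in DESeq2 (0.47, DESeq2 adjusted p = 0.0323) and in limma with voom (0.49, limma adjusted p = 0.0108). In edgeR it passed without w1118 library 2 with inhibitor (0.64, adjusted p = 0.00746) and without both libraries that stand apart (0.64, adjusted p = 0.00538). With the inhibitor in both genotypes, lncRNA:roX2 had 1.11, 1.20 and 1.101 CPM in libraries labelled KO and 0.877, 0.784 and 0.679 CPM in w1118, with no overlap, as for 27.8% of all genes in that comparison.

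No protein gene fell with the inhibitor as far as lncRNA:roX2, whose change chose the set. The averaged changes of the 8 lay between -0.05 for msl-3 and 0.10 for Sxl on the log2 scale. Of the 8, 0 passed the threshold (edgeR adjusted p from 0.978 to 1), as did no gene other than lncRNA:roX2 (0.00706% of all genes). At an unadjusted p under 0.05 there were also 0 of 8, near the share of all genes, 751 of 14155 (5.31%). In DESeq2 and in limma with voom 0 of 8 passed, where 44 and 2 of all genes did. The 95% intervals of all 8 together ran from -0.24 to 0.32. The median change of the 9 genes other than lncRNA:roX2 was -0.03, against -0.01 for all genes tested. Within genotypes 0 of these 9 passed in heads labelled KO, where the 1 gene called (0.00706%) was CG42558, and 0 in w1118, where no gene was called (0%). At an unadjusted p under 0.05 there were 523 genes in heads labelled KO and 1046 in w1118, and DESeq2 called 67 and 48.

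Among the subunits, msl-2 (FBgn0005616, 2L from 3462218 to 3466112), whose product is made in males, showed the one gap between groups with the inhibitor. Libraries labelled KO had 43.4, 42.2 and 47.3 CPM with the inhibitor, against 40.4, 42.1 and 42.2 CPM with DMSO. The lowest inhibitor library and the highest DMSO library are almost level, and the change was 0.09 (SE 0.11, edgeR adjusted p = 1). Such a gap was found for 13% of all genes in heads labelled KO. In w1118 heads msl-2 had 37.7, 40.2 and 36.4 CPM with the inhibitor, against 37.8, 49.6 and 39.2 CPM with DMSO, where the groups overlapped. The high value of 49.6 CPM belongs to w1118 library 2 with DMSO.

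The scaffold gene msl-1 (FBgn0005617, 2L from 18683720 to 18688800) had 59.2, 59.7 and 57.7 CPM with the inhibitor and 58.3, 59.2 and 57.0 CPM with DMSO in libraries labelled KO. In w1118 it had 58.2, 64.8 and 61.5 CPM with the inhibitor and 64.8, 69.8 and 61.0 CPM with DMSO. These groups overlapped in both genotypes. The 2 lowest subunits, msl-3 (FBgn0002775, 3L from 7123213 to 7125533) and mof (FBgn0014340, X from 5873840 to 5876853), lay between 11.0 and 14.7 CPM and between 14.6 and 20.5 CPM over all 12 libraries. Of the exon bases of msl-3, 4.3% are shared with form3 on the opposite strand, which makes its counts uncertain to that extent. Neither gene passed in any comparison, and the direction of both by genotype turned under median-of-ratios scaling.

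The helicase gene mle (FBgn0002774, 2R from 5974857 to 5980778) was the 1 member that passed by genotype. Libraries labelled KO had 73.3, 67.8 and 72.4 CPM with the inhibitor, and w1118 libraries had 83.2, 71.1 and 77.6 CPM with the inhibitor. With DMSO, libraries labelled KO had 65.3, 63.4 and 68.5 CPM, and w1118 libraries had 82.7, 100.4 and 80.6 CPM. The groups overlapped with the inhibitor and not with DMSO, where 24.1% of all genes had such a gap. Averaged over treatments, the log2 difference was -0.27 (SE 0.07, 95% interval -0.43 to -0.11, edgeR adjusted p = 0.0412), a level of 0.829 times that in w1118. It was -0.42 with DMSO (SE 0.10, edgeR adjusted p = 0.0529) and -0.12 in inhibitor-fed flies (SE 0.10, edgeR adjusted p = 0.592). The interaction, which is the difference between these, was 0.30 (SE 0.15, edgeR adjusted p = 0.972). Without both w1118 libraries that stand apart, the difference with DMSO was smaller at -0.23 and passed (edgeR adjusted p = 0.0444), and the interaction was 0.11 (edgeR adjusted p = 0.945).

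One member called of 10 is close to the background, since 11.1% of all genes passed the averaged genotype comparison, 754 higher and 818 lower in heads labelled KO. The call on mle held in 3 of 20 alternatives and was lost in 17, with changes from -0.27 to -0.14 and adjusted p from 0.00527 to 0.183. It held with DESeq2, with voom and without both w1118 libraries that stand apart, where it was smaller at -0.17 (edgeR adjusted p = 0.0251). With DMSO alone 4.1% of all genes passed and 0 members, and with the inhibitor in both genotypes 3.41% and 0 members. At an unadjusted p under 0.05 there were 2 members with DMSO, mle and Clamp, against 18.4% of all genes. With the inhibitor there was 1 member, lncRNA:roX2, whose inhibitor libraries chose the set, against 18.6% of all genes. DESeq2 and voom called mle with DMSO, where they called 1202 and 2406 of all 14155 genes.

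Clamp (FBgn0032979, 2L from 22165720 to 22169143), which helps recruit the complex to the X in males, was lower in every library labelled KO than in any w1118 library. It ran from 54.9 to 60.1 CPM with a median of 55.8 in the 6 libraries labelled KO, against 61.2 to 65.7 CPM with a median of 62.9 in the 6 of w1118. Such a gap over 6 against 6 libraries was found for 7.78% of all genes. The difference was -0.16 (SE 0.05, 95% interval -0.27 to -0.05, edgeR adjusted p = 0.0678), and it did not pass in edgeR or DESeq2, while limma with voom called it (-0.16, limma adjusted p = 0.0191). Of its exon bases 17.3% are shared with CG42748 on the opposite strand, and whether reads were counted by strand is not given in the sources used here, so its counts are uncertain to that extent. CG42748 differed by 0.15 in the other direction (SE 0.09, edgeR adjusted p = 0.318). Without both w1118 libraries that stand apart, the difference in Clamp was -0.07 (edgeR adjusted p = 0.255).

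JIL-1 (FBgn0020412, 3L from 11078752 to 11093193), the most even of the 10 genes, had 89.6, 91.5 and 93.2 CPM in libraries labelled KO with inhibitor, against 85.6, 81.5 and 85.6 CPM in w1118 with inhibitor. These groups did not overlap, as for 27.8% of all genes. With DMSO it had 90.6, 83.5 and 88.6 CPM in libraries labelled KO, against 86.8, 85.9 and 84.1 CPM in w1118, and these overlapped. Averaged over treatments it differed by 0.07 (SE 0.05, edgeR adjusted p = 0.368). Sxl (FBgn0264270, X from 7074550 to 7098053) ran from 252.2 to 314.0 CPM over 6 heads labelled KO, against 212.7 to 284.3 CPM in the 6 of w1118. Averaged over treatments it differed by 0.17 (SE 0.10, edgeR adjusted p = 0.292).

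In DMSO heads, lncRNA:roX1 was higher and msl-1, mle and Clamp were lower in every library labelled KO than in any w1118 library, where 24.1% of all genes had such a gap. With the inhibitor in both genotypes, lncRNA:roX2, msl-2 and JIL-1 were higher and Clamp was lower in every library labelled KO, where 27.8% of all genes had such a gap. The inhibitor libraries of lncRNA:roX2 are among those that chose the set. Clamp alone of the 10 showed a gap in both comparisons, and the share of all genes with a gap in both was not counted.

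The 2 w1118 libraries that stand apart weigh on these counts. Without both, 5 members passed the averaged genotype comparison: lncRNA:roX1, msl-2 (0.26, edgeR adjusted p = 0.0043), JIL-1 (0.14, edgeR adjusted p = 0.0336) and Sxl (0.28, edgeR adjusted p = 0.0198) were higher in heads labelled KO, and mle was lower. Without w1118 library 2 with DMSO alone, 3 passed, all higher: msl-2 (0.24, edgeR adjusted p = 0.00928), JIL-1 (0.15, edgeR adjusted p = 0.0312) and Sxl (0.31, edgeR adjusted p = 0.0167). Of all genes, 3246 of 14514 passed there. On all 12 libraries voom called 5 members, which were lncRNA:roX1, mle, Clamp, msl-2 (0.15, limma adjusted p = 0.045) and Sxl (0.20, limma adjusted p = 0.043). It called 3975 of all 14155 genes. With the inhibitor in both genotypes, lncRNA:roX1 (0.77, edgeR adjusted p = 0.0235) and msl-2 (0.32, edgeR adjusted p = 0.0182) passed without both libraries that stand apart, as did 1824 of 14303 genes. The number of all genes called by genotype on average without both was 4161 of 14303, so calls on members rose along with those on all genes. The median genotype effect over all genes was 0.03 without both, against -0.07 with all 12 libraries, a shift of 0.11. JIL-1 stood at 0.07 with all 12 libraries and at 0.14 without both, a smaller step than that of the median. The steps of lncRNA:roX1 (0.43 to 0.64) and msl-2 (0.10 to 0.26) were larger than that of the median, and Sxl went from 0.17 to 0.28. The interaction of genotype and inhibitor was called for 0 of 14155 genes (0%) and 0 members by edgeR. At an unadjusted p under 0.05 it held 685 genes and 0 members, and DESeq2 called 68 genes and 0 members.

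**Figure D3:**
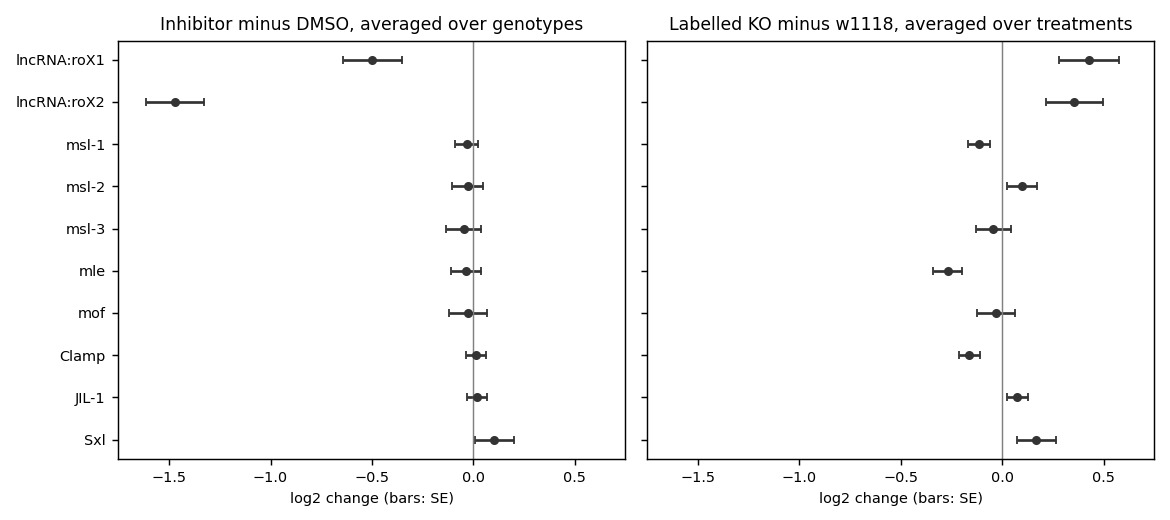
Log2 change of each of the 10 genes averaged over the other factor, inhibitor minus DMSO on the left and heads labelled KO minus w1118 on the right, with bars of 1 SE. On the left lncRNA:roX2 stands at -1.47 and lncRNA:roX1 at -0.50 with the 8 protein genes between -0.05 and 0.10, and on the right the values run from -0.27 for mle to 0.43 for lncRNA:roX1.

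The genes beside lncRNA:roX2 changed less with the inhibitor than it did. The change of lncRNA:roX2 chose the set, so that order is a description and not a result about the locus. Upstream on the same strand, 258 bases away, lies CG11695 (FBgn0030316, X from 11576883 to 11578806), and downstream, 339 bases away, lies nod, which encodes a kinesin-like protein. CG11695 had 58.1, 60.3 and 57.4 CPM in libraries labelled KO with inhibitor and 43.5, 58.8 and 53.7 CPM in those labelled KO with DMSO. In w1118 it had 17.7, 20.03 and 18.7 CPM with inhibitor and 21.6, 23.0 and 16.5 CPM with DMSO. Every library labelled KO lay above every w1118 library, and the difference averaged over treatments was 1.49 (SE 0.10, edgeR adjusted p = 1.44e-05). That call held in all 20 alternatives, between 1.48 and 1.64.

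The log2 difference with the inhibitor was 0.03 for CG11695 (SE 0.10, edgeR adjusted p = 1), -0.13 for nod (SE 0.15, edgeR adjusted p = 0.993), -0.31 for pkm (SE 0.19, edgeR adjusted p = 0.927) and -0.06 for e(y)2, a gene of the SAGA complex (SE 0.12, edgeR adjusted p = 1). None of the 4 passed, as no gene other than lncRNA:roX2 did. In libraries labelled KO, pkm had 793, 833 and 745 CPM with inhibitor, below the 1037, 1066 and 923 CPM with DMSO, a gap found for 13% of all genes. In w1118 it had 646, 997 and 627 CPM with inhibitor against 795, 1308 and 634 CPM with DMSO, and these overlapped. Its change was -0.35 in heads labelled KO (SE 0.27) and -0.27 in w1118 (SE 0.27). No annotated gene shares bases with lncRNA:roX2, so its counts have no overlapping partner.

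**Figure D4:**
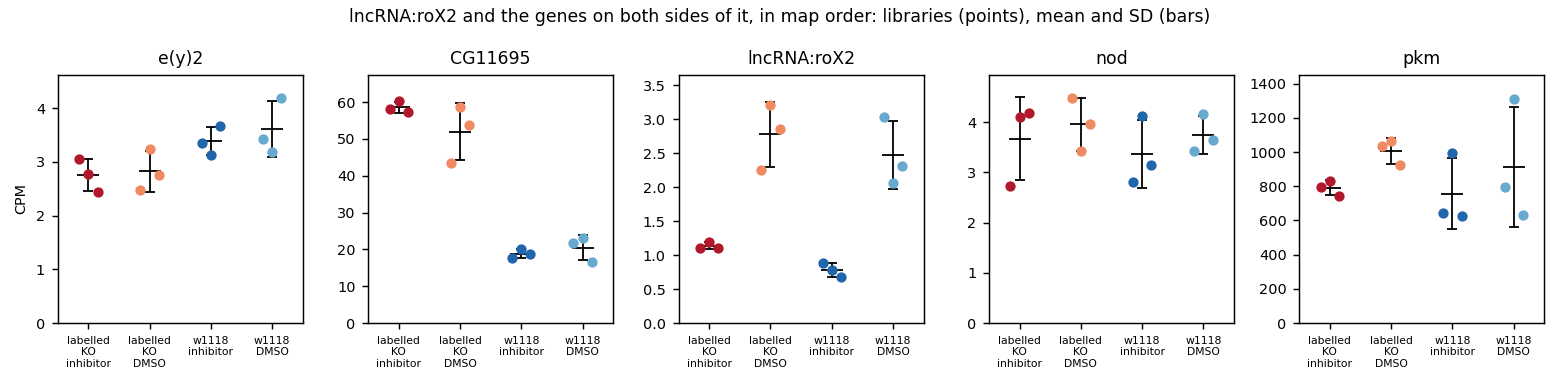
Levels in CPM (vertical axes, from 0) of lncRNA:roX2 and the 2 genes on each side of it in map order, with 1 point per library and the mean and SD of 3 libraries. The middle panel, lncRNA:roX2, is lower with inhibitor in both genotypes, the difference that chose the set. CG11695 separates the genotypes, with means of 58.6 and 52.0 CPM in heads labelled KO against 18.8 and 20.4 CPM in w1118.

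The surroundings of lncRNA:roX1 were less simple. The gene ec overlaps it on the opposite strand over 392 exon bases, or 7.2% of its exon bases. The log2 difference of ec with the inhibitor was -0.12 (SE 0.06, edgeR adjusted p = 0.914). The next gene, yin, 268 bases away, had a difference of -0.13 (SE 0.19, edgeR adjusted p = 0.999), and CG2930 beyond it one of -0.44 (SE 0.16, edgeR adjusted p = 0.892). On the other side the nearest gene, CG2901, lies 25683 bases away and had a difference of 0.45 (SE 0.68, edgeR adjusted p = 1). The gene after it, tRNA:Pro-CGG-3-1, had under 1 count in every library and was not tested.

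The genes whose log2 levels ran most like those of lncRNA:roX2 over the 12 libraries were lncRNA:CR45650 (Pearson's r = 0.898), Parp16 (0.848), CG18258 (0.836), CG4984 (0.828) and CG12477 (0.824). These points share libraries and depth, and the values are descriptions. Group means were not removed, so the values also hold the inhibitor difference in lncRNA:roX2 that chose the set. lncRNA:CR45650 averaged 0.0918 CPM with inhibitor and 0.265 CPM with DMSO in heads labelled KO, and 0.0833 CPM with inhibitor and 0.245 CPM with DMSO in w1118, near the level of 3 counts. CG18258 averaged 45.1 ± 7.32 CPM with inhibitor and 63.4 ± 10.05 CPM with DMSO in heads labelled KO (SD, n = 3 each). In w1118 it averaged 36.1 ± 6.30 CPM with inhibitor and 60.04 ± 12.5 CPM with DMSO (SD, n = 3 each). Among the other members lncRNA:roX1 was the most alike at 0.765, in place 26 among all genes tested, and the protein genes lay between -0.309 for Clamp and 0.168 for msl-2. The genes most like lncRNA:roX1 were Tmf (0.918) and BTBD9 (0.908) on the X and Oxp (0.887), JMJD6 (0.883) and lncRNA:CR43821 (0.871) on autosomes.

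Lists of genes that work beside these 10 could hold no call with the inhibitor. The averaged comparison called lncRNA:roX2 alone (0.00706% of the genes tested), so only their medians are informative. Of 7 genes listed for the NSL complex, which shares the MOF acetyltransferase, and for other MOF partners, 0 passed, with a median change of -0.01. Of 11 chromatin partners 0 passed (median 0.00), and of 16 genes of sex determination and of Sxl and msl-2 regulation 0 passed (median -0.01). The median over all genes was -0.01. By genotype 0 of 7, 2 of 11 and 2 of 16 passed, against 11.1% of all genes, with medians of -0.05, -0.08 and 0.00 against -0.07 for all genes.

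The chromatin partners that fell were scf and Pof. scf, a calcium-binding protein first described as a DNA supercoiling factor, averaged 22.3 ± 2.73 CPM with inhibitor and 24.5 ± 3.22 CPM with DMSO in heads labelled KO, and 41.2 ± 8.64 CPM with inhibitor and 37.7 ± 6.30 CPM with DMSO in w1118 (SD, n = 3 in each group, as for the next genes). Averaged over treatments it fell in heads labelled KO (log2 change -0.75, SE 0.13, edgeR adjusted p = 0.00458). Pof, which coats the fourth chromosome, averaged 8.77 ± 0.485 CPM with inhibitor and 9.34 ± 1.16 CPM with DMSO in heads labelled KO, and 11.4 ± 0.357 CPM with inhibitor and 12.3 ± 0.271 CPM with DMSO in w1118 (-0.39, SE 0.08, edgeR adjusted p = 0.0124). Pof was lost without w1118 library 2 with inhibitor (-0.31, edgeR adjusted p = 0.0501), and its annotation shares exon bases with Mmp1.

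The sex determination genes that rose were vir and Hrb27C. vir, part of the RNA methylation machinery that the female splicing of Sxl needs, averaged 70.3 ± 1.89 CPM with inhibitor and 67.8 ± 3.43 CPM with DMSO in heads labelled KO, and 54.7 ± 3.57 CPM with inhibitor and 55.3 ± 3.66 CPM with DMSO in w1118 (0.33, SE 0.06, edgeR adjusted p = 0.00678). Its annotation shares exon bases with Mthfs. Hrb27C, which acts with Sxl to repress msl-2 translation, averaged 577.9 ± 40.6 CPM with inhibitor and 541.9 ± 70.5 CPM with DMSO in heads labelled KO, and 430.03 ± 101.8 CPM with inhibitor and 348.0 ± 37.5 CPM with DMSO in w1118 (0.53, SE 0.13, edgeR adjusted p = 0.0301). Its call was lost in 5 of 20 alternatives, 4 of them without 1 library, with adjusted p up to 0.0788.

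The output of the X as a whole did not move detectably with the inhibitor. For each library the median log2 CPM of 11787 autosomal genes was subtracted from that of 2212 X-linked genes. The difference was 0.80 ± 0.04 with the inhibitor and 0.79 ± 0.02 with DMSO in heads labelled KO, and 0.75 ± 0.03 with the inhibitor and 0.75 ± 0.04 with DMSO in w1118 (SD, n = 3 each). Inhibitor and DMSO differed by 0.0025 (two-sided exact permutation test over 400 assignments within genotypes, p = 0.895). Heads labelled KO exceeded w1118 by 0.0419 (exact permutation p = 0.055, where 0.005 is the smallest p possible). This permutation p fell under 0.05 without library 1 labelled KO with inhibitor (0.052, p = 0.035), without w1118 library 3 with DMSO (0.0542, p = 0.02) and with means in place of medians (0.0435, p = 0.01). It was 0.2 without both w1118 libraries that stand apart, where the difference was 0.0261, and 0.385 with only genes of a mean log2 CPM above 3, where the difference was 0.0146. With those genes inhibitor and DMSO differed by -0.0312 (exact permutation p = 0.1).

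**Figure D5:**
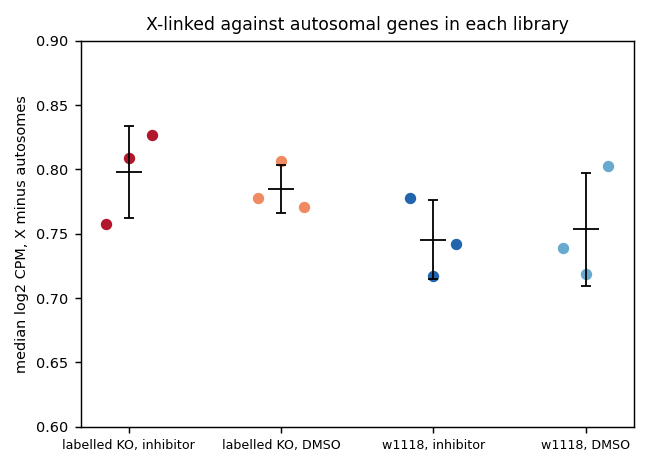
Median log2 CPM of X-linked genes minus that of autosomal genes in each library (vertical axis from 0.6 to 0.9), with the mean and SD of 3 libraries per group. Group means lie between 0.75 and 0.80, with inhibitor and DMSO overlapping in both genotypes.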

How the data were processed

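RNA was measured in 12 libraries, each from 1 female head, made by ribosomal RNA depletion with a NEBNext kit, per the labels' protocols. The authors deposited 1 table of estimated counts per feature (expected counts, not scaled to a common depth). Trim Galore 0.6.7, STAR 2.7.9a, Salmon 1.10.1 and the build BDGP6 are named in the submitters' processing notes, with no order or settings. Whether counting used strand is not given in the sources used here.

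The counts were rounded, and 6383 rows of transposable element copies and other features were left out, which held 3.81% to 5.03% of counts in heads labelled KO and 1.77% to 3.11% in w1118 heads. Gene rows passing edgeR's filterByExpr (minimum count 10) were scaled by TMM and fitted with 1 coefficient per group over all 12 libraries. Contrasts were tested with edgeR 4.0.16 (R 4.3.3) by the quasi-likelihood test and adjusted by Benjamini-Hochberg over 14155 genes with 0.05 as threshold. SE and 95% intervals were derived from the test statistic. CPM values use TMM-scaled totals, and log2 CPM values a prior count of 2. Alternatives used DESeq2 1.42.0, limma 3.58.1 with voom, other scalings and filters, and fewer libraries. The fit was tested on simulated data. Symbols and positions came from the identifiers in the BDGP6.54 annotation for 17855 gene rows. Reads carry no molecular identifiers, so intervals and the 3-count floor cover counting error only.

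Members and lists were chosen with earlier results of these data known. The text names all members, the listed genes that passed an averaged comparison, the 2 nearest neighbours on each side of both RNA genes and the 5 genes most like each of them. Of the genes that overlap a member, those on the opposite strand that share exon bases with it are named. The chi-square of replicate pairs gave no sign of a library deposited more than once.

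Over all genes, deviations from the group means were weakly correlated between samples with the same replicate number in different groups. The correlation ran from -0.153 to 0.173, over 0.1 in 3 of 18 pairs, so no pairing was used. It was 0.15 for the 2 w1118 libraries numbered 2, which both had few yolk protein counts.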

Additional observations from a re-analysis of the deposited data

How the results depend on the processing

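Of 1440 member values under alternatives, 1402 kept direction and side of the threshold or moved within their spread, 17 lost a call, all of mle in the averaged genotype comparison, 20 gained one, and none that passed reversed. These counts judge lncRNA:roX2 by size alone wherever an inhibitor difference enters. Its call in the averaged inhibitor comparison, which chose the set, was lost in 7 of 20 alternatives: with the replicate block (edgeR adjusted p = 0.158) and in 6 of 12 leaving out 1 library. For lncRNA:roX2 with DMSO, the genotype difference moved to 0.40 without w1118 replicate 1. Signs turned in 20 of 200 member values of the averaged genotype comparison and in 12 of 200 of the averaged inhibitor comparison. By comparison they turned most often for the inhibitor in w1118 (22 of 210) and least often in heads labelled KO (3 of 210).

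The 1 member called in the averaged genotype comparison became 2 with DESeq2, 5 with voom, 5 without both w1118 libraries numbered 2, 0 to 3 leaving out 1 library, and 0 with median-of-ratios scaling, with the other rows in TMM, with no filter on low counts and with a minimum count of 30. With DMSO the 0 became 1 with DESeq2, with voom and without both libraries. With inhibitor it became 2 without both and 0 to 1 leaving out 1 library. The cause was not tested.

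All genes called by genotype on average (1572 of 14155) became 2192 with DESeq2, 3975 with voom, 4161 of 14303 without both libraries, and 936 to 3246 leaving out 1. With DMSO the 581 became 1202 with DESeq2, 2406 with voom, 2614 without both, 343 with only the groups compared, and 227 to 1629 leaving out 1. With inhibitor the 482 became 1081, 1335, 1824 and 250 to 1351 in the order DESeq2, voom, without both and leaving out 1. The 1 gene called by the averaged inhibitor comparison became 44 with DESeq2, 2 with voom, 20 without both and 0 to 16 leaving out 1. In heads labelled KO the 1 became 67 with DESeq2, 4 with voom, 10 without both, 10 with only the groups compared and 0 to 7 leaving out 1. In w1118 the 0 became 48 with DESeq2, 9 without both and 0 to 9 leaving out 1. The interaction's 0 became 68 with DESeq2, 2 with voom, 1 without both and 0 to 1 leaving out 1.

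The replicate number as a block (replicate block) left 0 members called by genotype on average, 0 genes by the averaged inhibitor comparison and 0 in heads labelled KO. In the labels the samples share only a number.

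The X against autosomes by genotype became 0.0435 (exact permutation p = 0.01) with means, 0.0146 (p = 0.385) with genes above a mean log2 CPM of 3, 0.0261 (p = 0.2) without both libraries, and 0.0332 to 0.0542 leaving out 1 library.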

Other observations

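Within an intron of JIL-1 the annotation places a transposable element copy of the S family on the same strand, which no comparison used. It had 0 counts in all 6 libraries labelled KO. In w1118 it had 349, 0 and 288 counts with the inhibitor and 231, 0 and 0 counts with DMSO, so it was seen in 3 of 6 heads and at 0 in the rest. The 2 w1118 libraries numbered 2 were both at 0.

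Of 104 genes tested on chromosome 4, which Pof coats, 12 passed by genotype on average, 12 higher and 0 lower in heads labelled KO, against 11.1% of all genes, with a median of 0.07 against -0.07 for all genes. Cyp4d21, a male marker, ran from 2.06 to 4.68 CPM in heads labelled KO and from 21.8 to 39.2 CPM in w1118 (log2 difference averaged over treatments -3.06, SE 0.22, edgeR adjusted p = 2.6e-05).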
